A study of Mus musculus with 12 samples.

Results

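The genes described here are a set of 41 that build, move or answer to the actin cytoskeleton, chosen by symbol: the actins, the proteins that coat, crosslink and nucleate their filaments, the subunits of non-muscle and smooth muscle myosin II, and target genes of the transcription factor Srf and the coactivator Yap. Of the 41 members, 38 stood in at least 1 of the deposited files, which together name 10751 genes. Tagln (transgelin), Diaph1 (a formin) and Pdlim7 (a PDZ and LIM domain protein) stood in none of them. The cells were primary mouse keratinocytes from newborn epidermis, grown to passage 3 on 3T3 fibroblasts whose division had been stopped with mitomycin C, in serum-containing medium with 0.05 mM calcium. No genotype or strain is given in the labels. Undifferentiated cells (day 0) were compared with cells differentiated by a calcium shift (day 4). At each day, 3 libraries of polyadenylated RNA (input) and 3 of the same kind of RNA pulled down with an antibody to N6-methyladenosine (m6A) were made, 12 libraries in all. Whether the 3 stand for separate animals or cultures is not in the labels, and the authors' p-values then cover the variation among these samples alone, possibly technical.

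Actin monomers assemble into filaments, and myosin II pulls on filaments held together by crosslinkers such as alpha-actinin and filamin. Raised calcium makes keratinocytes form cell-cell junctions, which anchor belts of actin and myosin. Monomeric actin holds back the Mrtf coactivators of Srf, so that polymerisation switches on Srf targets, many of them actin and contractile genes carrying a CArG box in their promoter; tension on the cytoskeleton likewise favours Yap and its targets Ctgf, Cyr61 and Ankrd1. The m6A mark is written on messenger RNA as it is made, mainly near stop codons and in long exons, and is known to influence the stability and translation of the transcript.

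The files hold 1 list of m6A peaks per day, an expression table of genes and a methylation table of sites that passed the authors' thresholds. They carry no value per library, so depth is unknown and every test below is the authors' own. Their headers do not name the direction of the comparisons; it was read as day 4 over day 0 from genes and sites with peaks on a single day. At an adjusted p under 0.05, 7978 genes were listed for expression, out of 14924 tested as derived from the adjusted p-values. Keratinocyte identity was clear from the keratins Krt14 and Krt5, with means of 209477 and 196003 normalised counts over both days in the authors' deposited table. All 8 keratinocyte markers were listed, 5 higher and 3 lower at day 4. The largest changes among them in the authors' deposited table were in Krt14 (log2 1.06, SE 0.11), the basal integrin Itga6 (-0.99, SE 0.14) and Krt5 (0.96, SE 0.09). In bulk RNA a change in the share of cells of a type cannot be told apart from a change of RNA per cell, which holds for each result here.

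Because the CArG box is the letter code through which Srf acts, promoters of members were read first. RefSeq windows of GRCm38.p6, the assembly of mm10, reaching from 250 bases before to 50 bases after a transcript start, were at hand for 35 members in 40 windows. The CArG box stood without mismatch in 9 of the 40 windows (22.5%), in 8 genes, against 535 of all 32851 windows (1.63%). With up to 1 mismatch in its A and T core it stood in 13 windows (32.5%), in 11 genes, against 3280 windows (9.98%). The set was chosen to include Srf and its target genes, so a share above that of all windows was built into the choice. The box reads as the same code on both strands, so a single pass covers both, and a match is a description of letters and not of a bound site. The 250 bases before an annotated transcript start of Acta2 are shown because Acta2, smooth muscle alpha-actin, had the smallest adjusted p of all members. That start lies inside the annotated gene, whose outer 5' end is at 34255585. Capitals mark boxes with 1 mismatch, which lie from 84 to 75 and from 34 to 25 bases before the transcript start.
Acta2, minus strand, chr19:34255374-34255623: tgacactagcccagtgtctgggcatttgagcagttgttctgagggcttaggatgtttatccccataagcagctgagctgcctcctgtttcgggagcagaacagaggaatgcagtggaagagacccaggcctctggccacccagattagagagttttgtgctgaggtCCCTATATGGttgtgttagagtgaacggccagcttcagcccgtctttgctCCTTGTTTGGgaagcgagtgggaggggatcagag
The next stretches, each before an annotated transcript start, show boxes without mismatch in capitals. They come from an actin, a myosin light chain, an adhesion protein, a LIM protein, a calponin and Srf itself, whose window holds 2. Those of Fhl2 and Srf lie before internal transcript starts, inside the annotated gene.
Actg1, minus strand, chr11:120348551-120348610: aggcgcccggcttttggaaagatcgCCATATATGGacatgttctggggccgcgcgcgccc
Myl9, plus strand, chr2:156775278-156775337: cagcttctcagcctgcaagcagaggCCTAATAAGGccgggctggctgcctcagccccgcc
Vcl, plus strand, chr14:20929148-20929205: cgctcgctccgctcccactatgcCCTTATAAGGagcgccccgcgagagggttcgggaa
Fhl2, minus strand, chr1:43163962-43164017: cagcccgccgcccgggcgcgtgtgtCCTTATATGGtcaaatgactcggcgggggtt
Cnn2, plus strand, chr10:79988519-79988578: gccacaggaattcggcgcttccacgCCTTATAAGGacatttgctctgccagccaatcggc
Srf, minus strand, chr17:46556210-46556269: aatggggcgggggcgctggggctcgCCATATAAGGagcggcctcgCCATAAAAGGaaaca
Exact boxes also stood in the windows of Myl6 and Fhl1. The 8 genes with an exact box did not move alike: 5 were higher at day 4 (Actg1, Fhl2, Myl6, Myl9 and Vcl), Fhl1 was lower, and Cnn2 and Srf were not listed in the expression table. Conversely, of the 6 members that were at least 2-fold higher and have a window (Acta2, Ankrd1, Cnn1, Cyr61, Myl9 and Tpm1), only Myl9 held an exact box in its window. Of the 24 members with a window and no box, 10 were higher, 6 lower and 8 not listed.

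More members rose than fell. At an adjusted p under 0.05 in the authors' DESeq2 table, 28 of the 41 members (68.3%) were listed, against 53.5% of all genes tested. Of these, 20 were higher at day 4 (48.8% of members, against 27.1% of all genes tested) and 8 were lower (19.5%, against 26.4%). At least 2-fold higher were 9 members (22.0%, against 11.3%), and at least 2-fold lower were 2 (4.88%, against 9.90%). The median log2 fold change of the listed members was 0.50 in the authors' deposited table, against 0.26 over all listed genes. The listed members had a median mean of 3380 normalised counts, not corrected for length, against 509 over the table, and were measured with a median standard error (SE) of 0.11 against 0.14 on the log2 scale. The 13 members not listed were the 3 absent from all files and Actb, Actn1, Capza1, Capza2, Cnn2, Cnn3, Myh9, Pfn1, Srf and Tpm2. All 10 of the latter had an m6A peak, so their RNA was present, and for them no change was called, or no test was made.

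**Figure D1:**
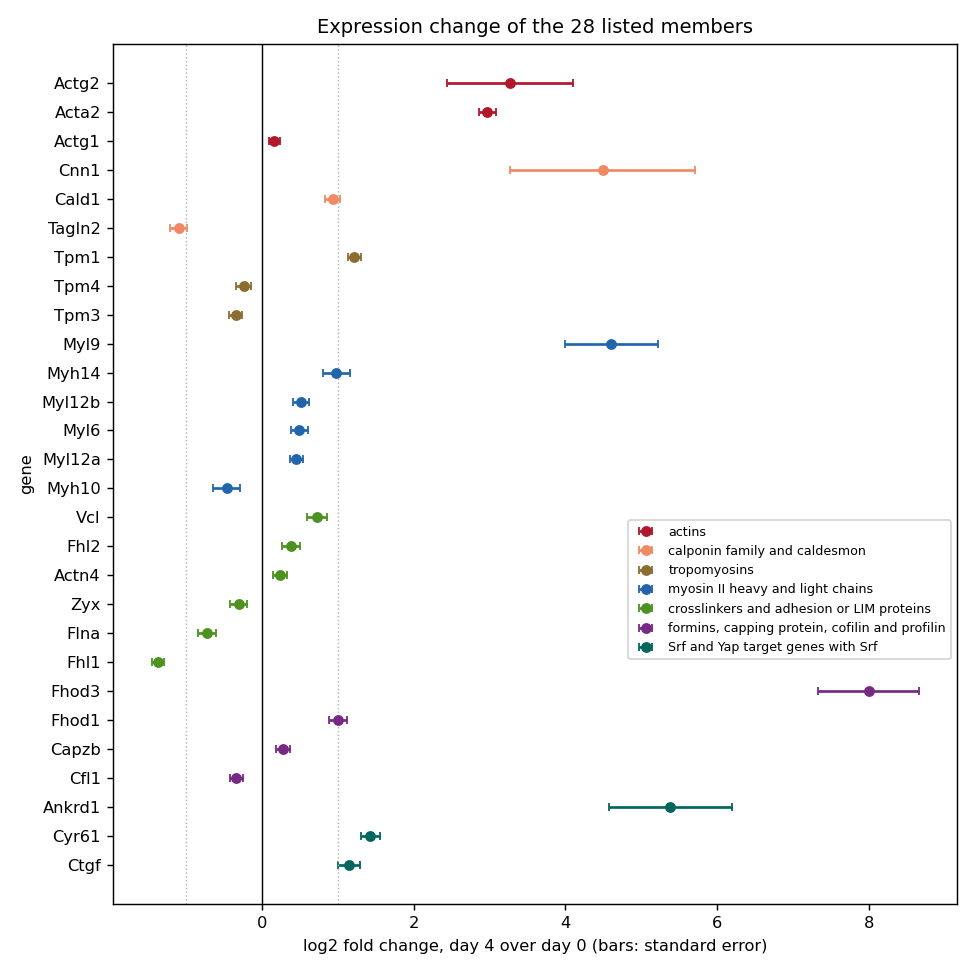
Log2 fold change (day 4 over day 0) of the 28 listed members in the authors' deposited table, with bars of 1 SE, coloured by role; dotted lines mark 2-fold changes. Acta2 at 2.97 has a short bar, whereas the members furthest right (Fhod3, Ankrd1, Myl9, Cnn1 and Actg2) have the longest bars.

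The actins split by isoform. Acta2 rose 7.84-fold (95% interval 6.70 to 9.17) in the authors' deposited table, with an adjusted p of 2.0e-142 from DESeq2, and ranked 38 of the 7978 listed genes by its p-value. Its mean of 1187 normalised counts and its fold change imply about 269 at day 0 and 2106 at day 4, if the mean weighs 3 input libraries of each day equally. The same working is used for every level by day below, and since normalised counts are not per length, levels are not compared between genes. Actg1, cytoplasmic gamma-actin, changed little: a 1.12-fold rise in the authors' deposited table (log2 0.16, SE 0.07, DESeq2 adjusted p = 0.0494), from an implied 23915 to 26702. Actb, the other cytoplasmic actin, was not listed. Actg2, the gamma-actin of smooth muscle, was listed at a log2 fold change of 3.27 (SE 0.83) in the authors' deposited table on a mean of only 7.61 normalised counts. The coding sequences of actins are close to identical, so the few counts of Actg2 could include reads of other actins; how such reads were counted is not stated in the labels.

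**Figure D2:**
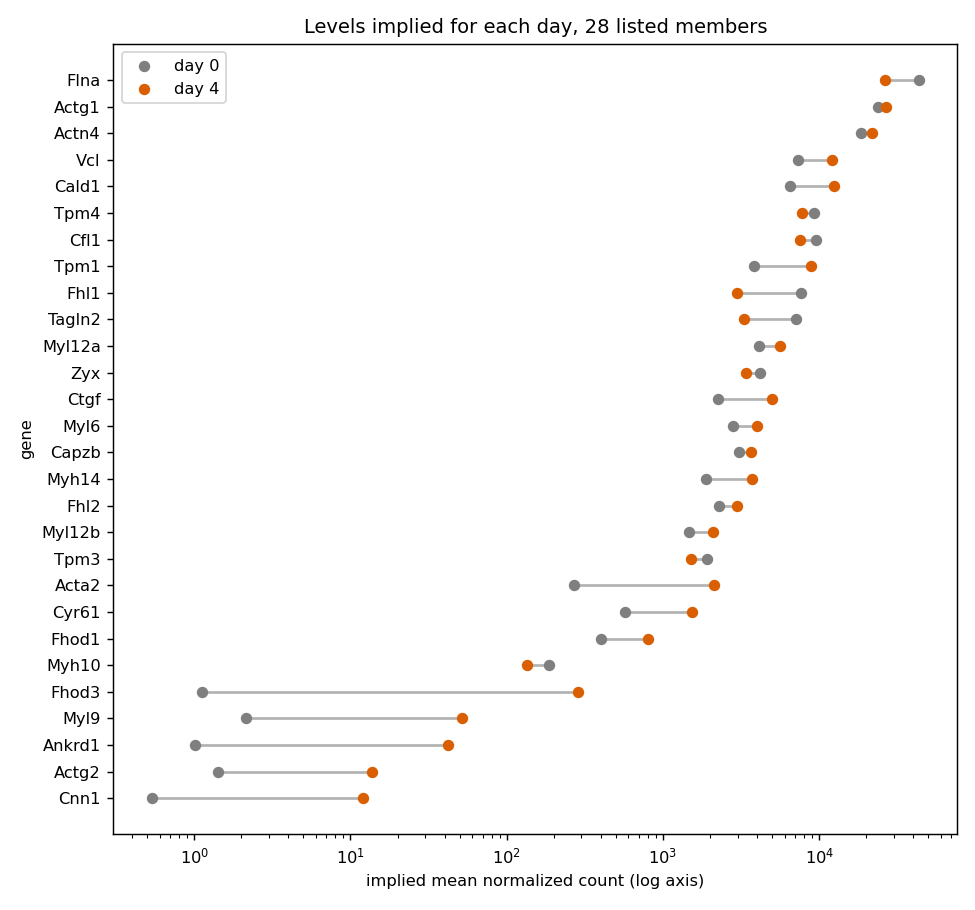
Mean normalised count implied for day 0 (grey) and day 4 (orange) in each of the 28 listed members, on a log axis, ordered by the overall mean. Acta2 moves from 269 to 2106, while Fhod3, Myl9, Ankrd1, Actg2 and Cnn1 start from under 3 normalised counts.

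Calponins and transgelins, small proteins that coat filaments, moved in both directions. Cnn1, the smooth muscle calponin, was listed at 4.49 (log2, SE 1.22, DESeq2 adjusted p = 6.3e-04) in the authors' deposited table on an implied 0.535 normalised counts at day 0 and 12.0 at day 4, few enough that the size of the change is loosely fixed. Tagln2, the widely expressed transgelin, fell by 1.10 (log2, SE 0.11, DESeq2 adjusted p = 4.0e-23), from an implied 7108 to 3318 in the authors' deposited table. Cnn2 and Cnn3, the calponins of non-muscle cells, were not listed. Caldesmon (Cald1), which restrains myosin on the filament, rose 1.90-fold in the authors' deposited table, from an implied 6480 to 12338 (log2 0.93, SE 0.10, DESeq2 adjusted p = 6.0e-18).

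Among the tropomyosins, which run along the filament and set which proteins can bind it, a rise of Tpm1 stood beside falls of Tpm3 and Tpm4. Tpm1 went from an implied 3810 to 8864 normalised counts in the authors' deposited table, 2.33-fold higher (log2 1.22, SE 0.09, DESeq2 adjusted p = 1.1e-44). Tpm3 fell by 0.35 (SE 0.08) and Tpm4 by 0.24 (SE 0.10) on the log2 scale in the authors' deposited table. Tpm2 was not listed.

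Of the 7 myosin II genes, 5 rose, all 4 light chains among them. Myl9, the regulatory light chain of smooth muscle, had a log2 fold change of 4.61 (SE 0.61, DESeq2 adjusted p = 4.2e-13) in the authors' deposited table, from an implied 2.13 to 51.9 normalised counts. Myl12a (0.45, SE 0.09), Myl12b (0.52, SE 0.11) and the essential light chain Myl6 (0.49, SE 0.11) had smaller log2 fold changes in the authors' deposited table. Myl12a and Myl12b are near-identical neighbours, so their counts may not be separate. The heavy chains differed: Myh14 (non-muscle myosin IIC) rose 1.97-fold, from an implied 1883 to 3712, in the authors' deposited table (log2 0.98, SE 0.18, DESeq2 adjusted p = 2.1e-07). Myh10 (IIB) fell by 0.47 (log2, SE 0.18, DESeq2 adjusted p = 0.0161) in the authors' deposited table on a mean of 160, and Myh9 (IIA) was not listed.

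Crosslinkers and adhesion proteins had as many falls as rises, 3 each of 8. Filamin A (Flna), which crosslinks filaments and ties them to the membrane, fell by 0.73 (log2, SE 0.12, DESeq2 adjusted p = 3.9e-09) in the authors' deposited table, from an implied 43525 to 26305. The LIM protein Fhl1 fell most of all members, by 1.37 (log2, SE 0.08, DESeq2 adjusted p = 3.2e-59), from an implied 7669 to 2968 in the authors' deposited table, while its relative Fhl2 rose by 0.38 (SE 0.12). Zyxin (Zyx), found at focal adhesions and stress fibres, fell by 0.31 (SE 0.11) in the authors' deposited table. Vinculin (Vcl), which links actin to cell-cell and cell-matrix adhesions, rose by 0.72 (SE 0.13, DESeq2 adjusted p = 2.2e-07) and alpha-actinin-4 (Actn4) by 0.24 (SE 0.09) on the log2 scale in the authors' deposited table. Actn1 was not listed.

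Formins nucleate and extend unbranched filaments. Fhod3, a formin best known from heart muscle, had a log2 fold change of 7.99 (SE 0.67, DESeq2 adjusted p = 7.9e-32) in the authors' deposited table, from an implied 1.13 to 288 normalised counts. Its relative Fhod1 went from an implied 402 to 805 (log2 1.00, SE 0.12, DESeq2 adjusted p = 2.2e-15) in the authors' deposited table, just under the limit of 2-fold. Capping protein closes the growing end: its beta subunit Capzb rose by 0.27 (log2, SE 0.09) in the authors' deposited table, and the alpha subunits Capza1 and Capza2 were not listed. Cofilin (Cfl1), which severs filaments, fell by 0.34 (log2, SE 0.09) in the authors' deposited table, and profilin (Pfn1), which feeds monomers to formins, was not listed.

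The 3 members named above as Yap targets, Ctgf, Cyr61 and Ankrd1, each rose by at least 2-fold, while Srf was not listed. Members with a CArG box did not move alike, as given above. Ctgf and Cyr61, secreted matricellular proteins, went from an implied 2265 to 5012 (2.21-fold, DESeq2 adjusted p = 3.8e-15) and from 573 to 1541 (2.69-fold, DESeq2 adjusted p = 6.2e-29) in the authors' deposited table. Ankrd1, an ankyrin repeat protein of stretched muscle, had a log2 fold change of 5.38 (SE 0.81, DESeq2 adjusted p = 1.7e-10) in the authors' deposited table, from an implied 1.01 to 42.0 normalised counts.

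The wider actin machinery was read from 121 further genes in 7 lists. Of these, 46 were higher at day 4 (38.0%, against 27.1% of all genes tested), 26 lower (21.5%, against 26.4%) and 49 not listed in the authors' deposited table. At least 2-fold higher were 17 (14.0%, against 11.3%) and at least 2-fold lower 7 (5.79%, against 9.90%). The counts of single lists below are read against the same shares. In the list of severing, capping and monomer-binding proteins, 10 of 18 (55.6%) were higher and none lower. Among its genes with a mean of at least 100 normalised counts, profilin-2 (Pfn2, log2 2.42, SE 0.19) and thymosin beta-4 (Tmsb4x, 1.97, SE 0.12), which holds monomers in reserve, rose most in the authors' deposited table. The Arp2/3 complex, which branches filaments, and its activators had 8 higher and 4 lower of 17 in the authors' deposited table: cortactin (Cttn, 0.93, SE 0.08) and Arpc1a (0.84, SE 0.09) rose most, and Nckap1 (-0.75, SE 0.09) and Wasl (-0.66, SE 0.13) fell most. Of the 12 other formins and Ena/VASP proteins, 4 were higher and 2 lower, with Fmn1 at 1.74 (SE 0.22) and Inf2 at 0.60 (SE 0.14) against Fmnl2 at -1.97 (SE 0.12) and Daam1 at -0.57 (SE 0.11) on the log2 scale in the authors' deposited table. The focal adhesion list was the only 1 of the 7 with more falls (10 of 23) than rises (7): Tln2, a talin, stood at -2.21 (SE 0.20) and focal adhesion kinase Ptk2 at -1.16 (SE 0.09), against Tns1 at 0.88 (SE 0.15) and Bcar1 at 0.85 (SE 0.13) in the authors' deposited table.

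The list of regulators of Srf and Yap, which mixes activating and restraining ones, had 6 higher and 3 lower of 15. Tead2 stood at 1.10 (SE 0.14) and Amotl2, a restraining one, at 1.09 (SE 0.11) in the authors' deposited table. Tead1 stood at -0.92 (SE 0.17) and Tead4 at -0.85 (SE 0.10) there. Other crosslinkers and membrane linkers had 5 higher and 4 lower of 18: synaptopodin (Synpo, 1.93, SE 0.13) and ezrin (Ezr, 0.41, SE 0.08) rose, and plectin (Plec, -1.27, SE 0.27) and fascin (Fscn1, -0.65, SE 0.13) fell in the authors' deposited table.

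Several of the strongest rises are genes that muscle cells and fibroblasts also express, and the cultures were started on fibroblast feeders. Of 18 fibroblast markers, 5 were higher (27.8%, near the 27.1% of all genes tested), 1 was lower and 12 were not listed. All 5 were at least 2-fold higher (27.8%, against 11.3% of all genes tested), and the 1 lower was at least 2-fold lower (5.56%, against 9.90%). The largest changes were in the collagen Col5a1 (log2 4.58, SE 0.38, mean 65.8 normalised counts), periostin (Postn, 3.66, SE 0.22, mean 305) and S100a4 (2.66, SE 0.37, mean 40.7) in the authors' deposited table. Pdgfra (1.73, SE 0.31, mean 50.9) and fibronectin (Fn1, 1.07, SE 0.14, mean 2763) also rose there. Col1a1, Col1a2, Col3a1, Pdgfrb, Thy1, Dcn, Lum and Vim were among those not listed, and Col6a1 fell by 2.07 (SE 0.24) in the authors' deposited table. Of 10 smooth muscle and pericyte markers, 4 (40.0%) were higher (the largest changes being Mylk at 2.52, SE 1.05, Synpo2 at 2.23, SE 0.64, and Mcam at 0.64, SE 0.10), on means of 4.30, 9.16 and 1649 in the authors' deposited table. Myh11, Des, Myocd, Lmod1, Rgs5 and Cspg4 were not listed and had no peak. Of 11 striated muscle markers, 3 (27.3%, near the share of all genes tested) were higher (Mylpf at 1.21, SE 0.36, Acta1 at 0.65, SE 0.21, and Tnnt2 at 0.57, SE 0.14) in the authors' deposited table. Summed marker levels by group cannot be had without levels of genes that are not listed. The part of other cells in the rises of Acta2, Myl9, Cnn1, Actg2, Fhod3 and Ankrd1 was not tested.

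In the m6A data, members held 99 peaks in 27 genes at day 0 and 105 peaks in 33 genes at day 4, out of 19920 peaks in 7379 genes and 18423 peaks in 6945 genes. No member had peaks at day 0 only, 27 had them on both days, and 6 at day 4 only: Acta2, Fhod1, Fhod3, Myh14, Myl12a and Tpm2. Over all genes 1047 had peaks at day 0 only, 613 at day 4 only and 6332 on both days. Of the 6, all but Tpm2 were also higher in expression at day 4. So were 466 of the 497 genes of the expression table with peaks at day 4 only, the pattern from which the direction was read. The count is therefore not particular to the members. A peak can be called only where enough RNA is read, and the part of the RNA level in these day 4 peaks was not tested. The 8 members without a peak included the 4 listed on means under 100 normalised counts (Actg2, Cnn1, Myl9 and Ankrd1) and also Myh10, with a mean of 160 in the authors' deposited table.

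**Figure D3:**
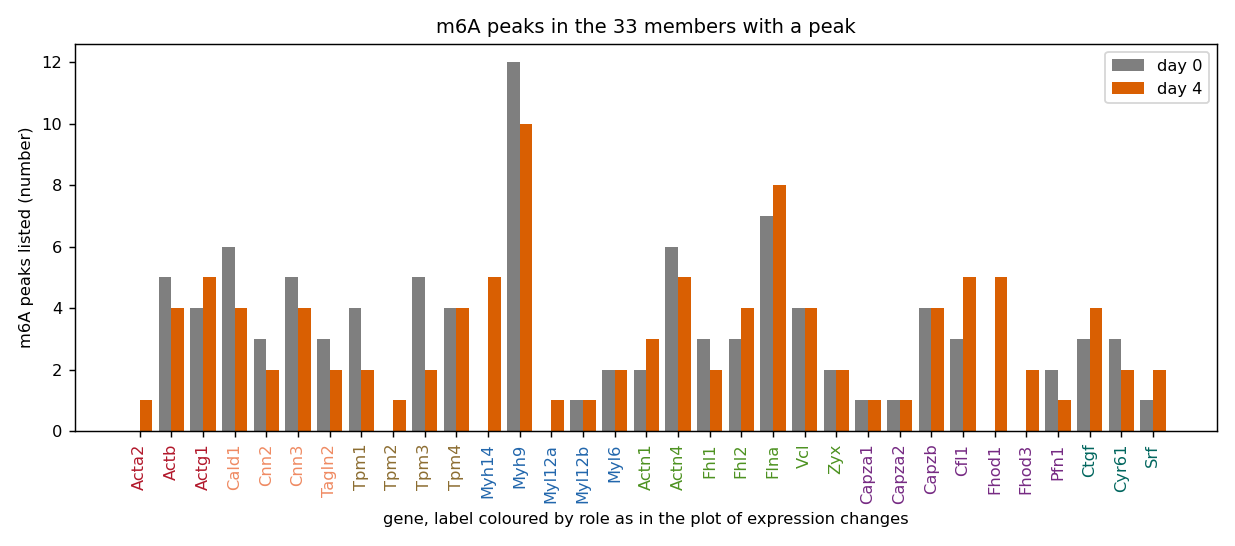
Number of m6A peaks listed at day 0 (grey) and day 4 (orange) in each of the 33 members with a peak, ordered by role. Myh9 holds most (12 and 10), and Acta2, Tpm2, Myh14, Myl12a, Fhod1 and Fhod3 have day 4 bars only.

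The peaks were many per gene and, over all members, low in median score. A member with peaks held 3.67 at day 0 and 3.18 at day 4 on average, against 2.70 and 2.65 over all genes with peaks. Myh9 alone held 12 and 10. Peaks per gene were not compared at like expression level, although the listed members had high counts. The median of the authors' enrichment score was 5.60 within the day 0 list, against 21.4 for all its peaks, and 7.0 within the day 4 list, against 17.1. Genes with high counts had low scores in general: in genes with a mean of at least 2000 normalised counts the median over all peaks was 11.7 at day 0 and 10.5 at day 4, against 26.1 and 20.4 in genes below that level. Members above that level had medians of 5.72 over 58 peaks at day 0 and 5.83 over 63 at day 4. Members below it had 8.42 over 9 peaks at day 0 but 32.7 over 13 at day 4, the latter above the 20.4 of all genes of that level. Whether scores of both days share a scale is not stated, so they are read within a day and no change is drawn from them.

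Some member peaks scored far above the member median. Fhod3 had the highest member score, 519 in the day 4 list, where it ranked 59 of 18423. Capza1 held a single peak on each day, which runs over most of the gene with its introns, with a score of 254 (rank 992) in the day 0 list and 166 (rank 952) in the day 4 list. The main peak of Srf scored 134 at day 0 and 126 at day 4, and a further peak, scored 20.6 and 51 bp from the 3' end of Srf, was listed at day 4. The only Acta2 peak, chr19:34251748-34255324 in mm10, reaches from base 50 after the transcript start that follows the promoter shown above into the gene for 3577 bp, introns included, and scored 70.2 at day 4. The highest scores of Actb and Actg1 were 8.90 and 14.8 at day 0 and 7.88 and 9.01 at day 4.

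Most member peaks sat at the same place on both days. Of the day 0 peaks 74 of 99 (74.7%) shared at least 1 bp with a day 4 peak, against 70.2% of all peaks, and of the day 4 peaks 71 of 105 (67.6%) shared 1 bp with a day 0 peak, against 78.9%. In 21 of the 27 members with peaks on both days (77.8%, against 84.1% of all such genes) the peak of highest score overlapped between the days. It did not in Actn4, Cnn3, Flna, Myh9, Myl6 and Zyx. In Actn4, for example, the leading day 0 peak (score 30.0) lies 204 bp from the 3' end, and the leading day 4 peak (score 30.6) lies 71 bp from the 5' end.

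Peaks near the annotated gene start were more numerous at day 4. At most 1000 bp from the 5' end lay 10 of 99 day 0 peaks (10.1%), in 9 members, and 20 of 105 day 4 peaks (19.0%), in 17 members. Over all peaks the shares were 9.16% and 11.3%. Many of these peaks span introns: without peaks longer than 1000 bp the counts were 2 and 9. Acta2, Fhod1, Myh14, Myl12a and Tpm2 held such a peak at day 4 and had no peak anywhere at day 0. All of them but Tpm2 were higher in expression at day 4, as were most listed genes with peaks at day 4 only (466 of 497). The part of the RNA level was not tested. Near the 3' end, where m6A is known to gather, lay 43.4% of the day 0 and 38.1% of the day 4 member peaks, against 29.5% and 31.1% of all peaks.

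Tpm4, Ctgf and Cnn3, picked after their values were seen, show peaks at the start of the gene. The Tpm4 peak begins 4 bp after the start, at chr8:72135292-72135391 in mm10 on both days, and scored 7.07 in the day 0 list and 34.8 in the day 4 list. No site there was listed as changed in methylation, and no change is read from the scores. The Ctgf peak 49 bp after the start scored 9.07 at day 0 and 36.4 at day 4. Cnn3 had no peak near its start at day 0 and a peak of score 19.1 from the first base at day 4. The core letters of the m6A motif, GGAC on the sense strand, stood in the first 50 transcribed bases of 6194 of 32851 RefSeq windows (18.9%). In the bases under start peaks of Cnn3, Myl12a, Myl12b, Myl6 and Tpm4, read over at most 50 bases after an annotated start, they did not stand at all. For Myl6 that start is an internal one, inside the annotated gene and inside the peak. In Myh14 they stood once, shown here because its peak covers them, with the 4 letters in capitals.
Myh14, minus strand, chr7:44670801-44670830: ggccgaggcctctGGACcgccctgggcgcc

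**Figure D4:**
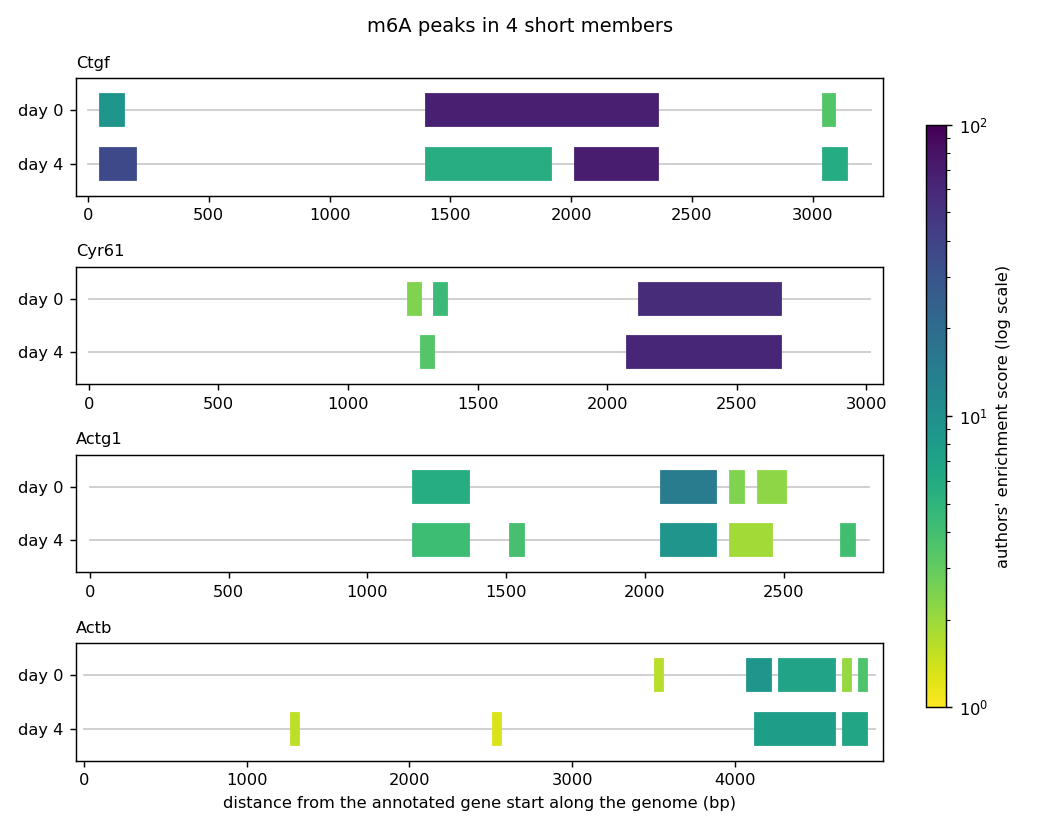
Positions of m6A peaks along 4 short members, in bp from the annotated gene start along the genome, at day 0 (upper row) and day 4 (lower row); colour gives the authors' enrichment score on a log scale, read within a day. Ctgf has a peak 49 bp after its start on both days, and Cyr61 keeps 1 strong peak, scored 56.8 and 61.5.

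The authors' methylation table compares the days site by site, on a log scale whose base is not stated. It lists gains at day 4 for 1763 of 36796 sites tested (4.79%) and losses for 798 (2.17%). In members it lists 16 sites in 12 genes, 14 gained in 11 genes and 2 lost, so 87.5% were gains, against 68.8% of all listed sites. Of the 33 members with a peak 12 had a listed site, against 2010 of all 7992 genes with a peak. Gains lay near both ends of the genes: 5 of 14 (35.7%) were at most 1000 bp from the 5' end, against 24.2% of all gains, and 5 (35.7%) from the 3' end, against 38.9%.

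**Figure D5:**
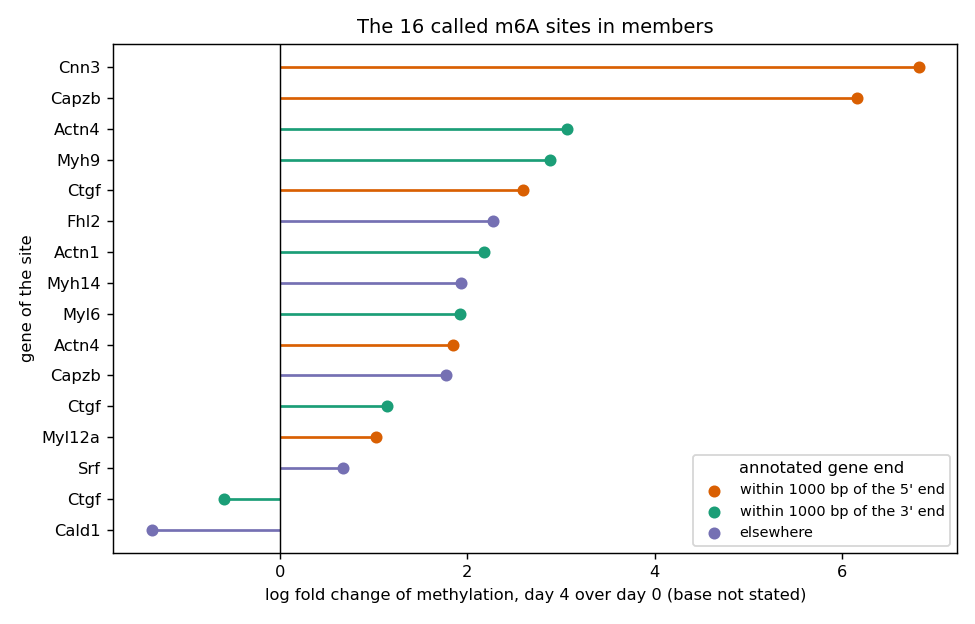
Change of methylation (log scale, base not stated, day 4 over day 0) at the 16 listed sites in members, coloured by the distance to an annotated gene end. Cnn3 and Capzb lead the 14 gains, both near the 5' end, and Ctgf and Cald1 hold the 2 losses.

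At the 5' end, the gain at the start of Cnn3, chr3:121426541-121426639 in mm10, was the largest gain of the authors' deposited table outside 182 sites listed with an infinite change (6.83, false discovery rate (FDR) 6.0e-05). Capzb gained 6.16 (FDR 0.00983) at chr4:139192949-139192998, the 7th largest finite gain of the authors' deposited table, in a place with no listed peak on either day. This site lies 50 bp from the outer 5' end of the annotated gene, but 1113 bp from the nearest transcript start with a RefSeq window. A further Capzb gain of 1.78 (FDR 0.00886) lies inside the gene in the authors' deposited table. Actn4 gained 1.84 (FDR 0.00664) over a site that stretches 43297 bp with its introns, and Myl12a 1.02 (FDR 0.0497) over a site without a peak, in the authors' deposited table. The gain of Fhl2 (2.28, FDR 0.0102), which lies 37 bp after an internal annotated start, and that of Myh14 (1.93, FDR 0.0468) are far from the outer ends of their genes in the authors' deposited table.

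At the 3' end, gains stood in the myosins Myh9 (2.89, FDR 1.9e-04, 50 bp from the end) and Myl6 (1.92, FDR 3.2e-04, 49 bp) in the authors' deposited table. Both alpha-actinins gained there too, Actn4 by 3.07 (FDR 0.00400, 55 bp) and Actn1 by 2.17 (FDR 0.0375, 199 bp), in the authors' deposited table. Srf gained 0.68 (FDR 0.00480) at its main peak in the authors' deposited table.

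Ctgf was the only member with gains and a loss. Its start gained 2.60 (chr10:24595491-24595785 in mm10, FDR 1.7e-09) and its last bases 1.14 (FDR 0.0477), while the stretch between, chr10:24596743-24597898, which holds its strongest peak, lost 0.60 (FDR 0.0423) in the authors' deposited table. The other loss was in Cald1 (-1.37, FDR 0.00271) in the authors' deposited table, over a peak within the gene that was listed on both days.

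Set beside expression, the 11 members with a gained site held 7 that were higher in expression at day 4 (Actn4, Capzb, Ctgf, Fhl2, Myh14, Myl12a and Myl6), none that was lower, and 4 that were not listed (Actn1, Cnn3, Myh9 and Srf). Over all 1438 genes with a gained site, 547 were higher, 464 lower and 427 not listed. The members whose expression fell (Tagln2, Tpm3, Tpm4, Myh10, Flna, Zyx, Fhl1 and Cfl1) had no listed methylation change. Over all genes with a peak, only 2010 of 7992 had one. Among members that rose, Acta2, Actg1, Actg2, Ankrd1, Cnn1, Cyr61, Fhod1, Fhod3, Myl9, Myl12b, Tpm1 and Vcl had no listed methylation change either. Of the members named here without a change, Actg2, Ankrd1, Cnn1, Myl9 and Myh10 had no peak on either day.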

How the data were processed

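RNA of 12 libraries, grouped by their titles into 4 groups of 3, was summarised by the authors in 4 deposited files, with mm10, HISAT2 2.1.0 and DESeq2 1.18.1 per the submitters' processing notes. For the peak caller and the test of methylation, no name is given in the sources used here. Per the file headers, each peak has an enrichment score and a p-value, and each site a change on a log scale of unstated base, handled as a score, with a false discovery rate. The expression table has the authors' mean normalised count, a signal averaged over libraries, and per the file headers a log2 fold change, SE and adjusted p-value for each gene. Only genes or sites under 0.05 are listed, and the number tested was derived from adjusted p, rank and p. Depth is unknown, and no test was made here.

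Of genes with peaks at day 4 only, 466 of 497 had a positive log2 fold change, and of those with peaks at day 0 only, 32 of 797. Of sites overlapping a day 4 peak only, 414 of 419 were positive, and of those overlapping a day 0 peak only, 29 of 119. Changes were therefore read as day 4 over day 0. Levels by day were worked from the mean and the fold change, and 95% intervals as 1.96 SE on each side.

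Members, lists and alternatives were chosen with earlier results of these data known. Every member is named. The rule took up to 2 rises and 2 falls per pathway list at a mean of at least 100, and the 3 largest changes per marker list. Genes such as Vim or Myh11 are named beyond it, for what the lists hold. Peaks of both days were called shared where their positions had at least 1 bp in common on the same strand. Distances to gene ends and promoters came from RefSeq tables of GRCm38.p6, matched by symbol, 2 members under a newer one. The scripts ran in Python 3.11.15 with pandas 2.3.3 and numpy 2.4.6, and were tested on simulated data. Positions in exons and untranslated regions, wider motifs and protein sequences were not analysed here. The members of 1 of the 7 further pathway lists are counted in the totals over all lists and are otherwise not reported here.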

Additional observations from a re-analysis of the deposited data

How the results depend on the processing

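No paired analysis was possible because the files hold no value per library, and for the same reason no library could be left out, no other normalisation tried and no library's part in a change seen. With a change of at least 2-fold, members higher at day 4 went from 20 to 9 and members lower from 8 to 2. At an adjusted p under 0.01 the members lower went from 8 to 5. At a false discovery rate under 0.01 the members with a gained site went from 11 to 7 and those with a lost site from 2 to 1. Without peaks longer than 1000 bp, an alternative chosen after seeing the data, the peaks near a 5' end went from 10 to 2 at day 0 and from 20 to 9 at day 4. Counting only peaks at most 200 bp from the 5' end, also chosen after seeing the data, gave 8 and 17. Members higher numbered 18 at an adjusted p under 0.01 and 16 at a mean of at least 100. Peaks at p under 1e-05 numbered 89 and 97, and the shared peaks were 67.7% and 62.9% when at least 50% of a peak had to be covered. Low counts limit the sizes of change in Actg2, Cnn1, Myl9 and Ankrd1 and the day 0 level of Fhod3.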
